A study of Mus musculus with 6 samples.

Results

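The genes described here are 10 genes of red pulp macrophage identity and iron handling: Spic, Cd5l, Vcam1, Hmox1, Blvrb, Slc40a1, Fth1, Tfrc, Trf and Slc11a1. They were chosen from measured values, since they were proposed with the difference between the same groups in view, so their differences are given as a description with no p-value, and counts of them past a threshold support nothing. Their probe sets, the groups of short oligonucleotides that each report on a transcript, were taken where the array annotation named exactly 1 of these symbols. That gave 19 of the 22690 probe sets on the array, 3 of them array controls for Tfrc, and it gave a value for 9 of the 10 genes, out of 12393 genes in all. Trf had no probe set that named it alone, so it has no value here.

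Total RNA of mouse cells labelled as CD4+CD25+ regulatory T cells was measured on 1 Affymetrix Mouse430a array per sample. The 3 wild type and 3 Hdac3 deleted samples share the C57BL6 background, and the latter carry HDAC3-fl/fl with FOXP3cre, a floxed Hdac3 gene and a recombinase named for Foxp3, the lineage factor of regulatory T cells. Hdac3 is a histone deacetylase, and the comparison asks how its loss changes expression in these cells. Age, number of animals and the tissue the cells came from are not given in the sources used here, nor is it said that samples came from separate animals, so spread between samples may be technical.

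Red pulp macrophages of the spleen engulf aged red blood cells and return their iron to the circulation. Inside them heme is opened by heme oxygenase, the resulting biliverdin is reduced, and the freed iron is stored in ferritin or exported by ferroportin to plasma transferrin. The transcription factor Spi-C, encoded by Spic, is needed for these cells to develop, and heme lifts repression of Spic by BACH1.

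The samples of each group were alike. The median log2 value of a sample was 6.28 to 6.29 in the wild type group and 6.43 to 6.47 in the Hdac3 deleted group, and the correlation across probe sets was at least 0.996 within a group and at most 0.924 between groups. Hdac3 itself was 1.47-fold lower, with a difference of -0.55 (SE 0.056, limma with Benjamini-Hochberg adjustment, adjusted p = 0.000125). The cell type labels met mixed values: the CD3 genes of T cells were well above background in all samples, while Foxp3 lay within background in both groups, at 3.77 and 3.68. Background here is the range of 27 bacterial control probe sets, 2.37 to 5.16 on the log2 scale. Where the mean of 1 group lay in that range, the fold is a bound, written "at least" and counted from the upper end of the range.

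All 9 measured genes were higher in the Hdac3 deleted samples, and for each the 3 Hdac3 deleted samples lay above the 3 wild type samples. A gene counts as past the threshold at an adjusted p under 0.05 with at least a 2-fold difference, and all 9 were past it on the higher side. Over all 12393 genes 9.04% passed on the higher side, 4.46% on the lower side, and 24.3% had groups that did not overlap with the Hdac3 deleted samples higher. The genes were proposed from this same contrast, so that count follows from how they were chosen, is no test of them, and nothing is read from it against those shares. The median difference (Hdac3 deleted minus wild type) was 6.06 over the 9 genes and -0.17 over all genes. Smallest of the 9 were Fth1 at 1.08, just above the 2-fold threshold, and Tfrc at 2.06, the latter from the brightest of its probe sets. In bulk RNA, more cells of a type and more RNA per cell cannot be told apart.

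**Figure D1:**
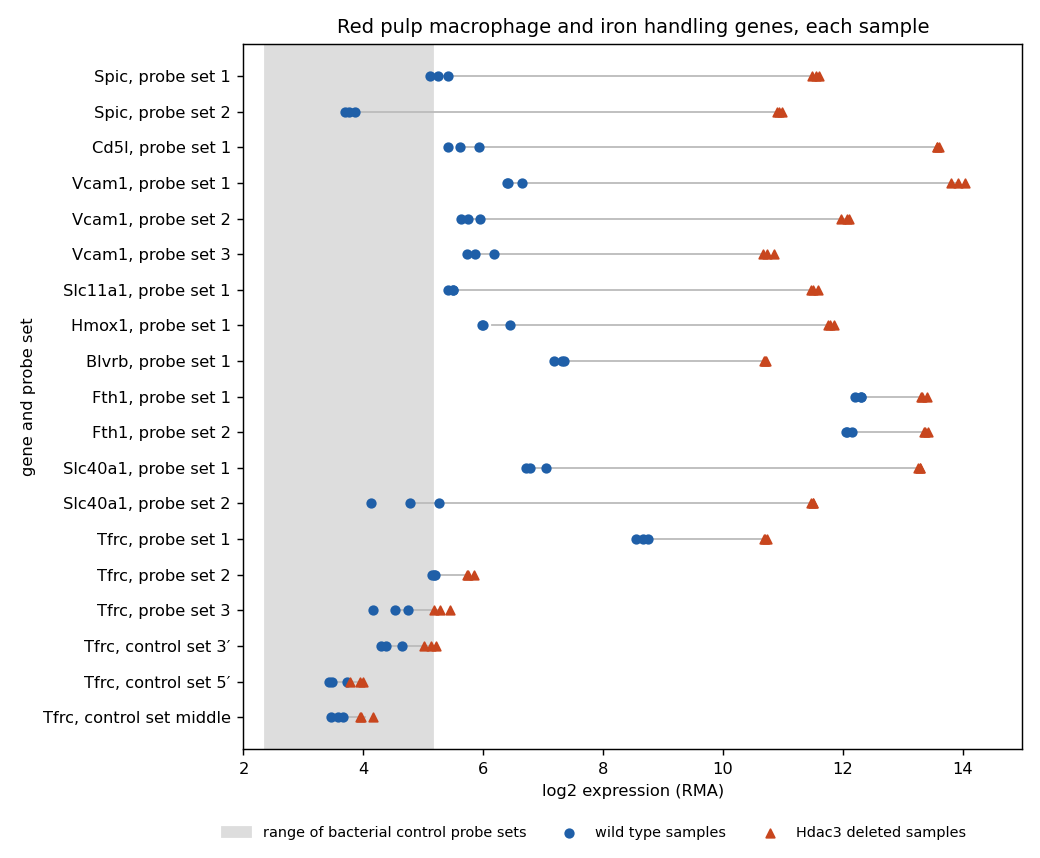
Log2 expression (RMA, horizontal axis) of each probe set of the 9 genes (rows) in 3 wild type (circles) and 3 Hdac3 deleted samples (triangles), with the range of the bacterial control probe sets in grey. The wild type samples of Spic, Cd5l and Slc11a1 sit close to the grey range and the Hdac3 deleted samples far to the right, while Fth1 is bright in both groups and the weaker Tfrc probe sets stay near the grey range.

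Start regions were available for 6 of the genes, from RefSeq on GRCm38.p6, as the 250 bases before each annotated transcription start. The regions of Cd5l (chr3:87357631-87357880, plus strand), Slc11a1 (chr1:74374953-74375202, plus strand) and Spic (chr10:88683024-88683273, minus strand) are shown because these genes went from near background to bright signal. They are written 5′ to 3′ on the gene's strand, with motif matches in capitals.
Cd5l: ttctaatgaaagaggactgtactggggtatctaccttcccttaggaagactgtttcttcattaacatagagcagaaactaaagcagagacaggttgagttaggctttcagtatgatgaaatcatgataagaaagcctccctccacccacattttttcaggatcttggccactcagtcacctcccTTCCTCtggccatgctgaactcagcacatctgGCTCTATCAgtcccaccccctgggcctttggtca
Slc11a1: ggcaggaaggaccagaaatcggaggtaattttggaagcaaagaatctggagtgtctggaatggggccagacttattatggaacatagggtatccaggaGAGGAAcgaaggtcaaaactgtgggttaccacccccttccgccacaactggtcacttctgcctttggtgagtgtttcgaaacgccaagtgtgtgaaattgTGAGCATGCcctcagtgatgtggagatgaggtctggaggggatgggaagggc
Spic: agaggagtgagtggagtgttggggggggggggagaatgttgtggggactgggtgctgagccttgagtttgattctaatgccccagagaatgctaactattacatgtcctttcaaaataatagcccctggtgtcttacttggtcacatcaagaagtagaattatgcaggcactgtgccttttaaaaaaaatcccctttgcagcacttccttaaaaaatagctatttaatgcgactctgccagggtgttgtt
Motifs searched on both strands were the PU box GAGGAA, a core bound by ETS factors such as PU.1 and Spi-C, the antioxidant response element core TGANNNNGC, bound by NRF2 and BACH1 with small MAF proteins, and the AP-1 site TGANTCA. No position was counted for more than 1 motif in the regions shown. The Cd5l region held a PU box 66 bases before the start and an antioxidant response element core 34 bases before it. Both Cd5l matches were on its minus strand, so the capitals shown are their reverse complements. The Slc11a1 region held a PU box 152 bases and a core 52 bases before the start, and the Spic region held none of these letters. Both Blvrb regions held the antioxidant response element core, with 1 match in the region of one start and 2 in the other, and the regions of Tfrc and Fth1 had no match. The AP-1 site was in no region of these 6 genes. Of all 32851 regions of this length 23.3% held the PU box, 35.2% the antioxidant response element core and 6.75% the AP-1 site, so such matches are common and describe only letters in the window.

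Spic was the transcription factor of the set. Its brighter probe set stood at 5.12, 5.24 and 5.42 in the wild type samples and at 11.49, 11.60 and 11.55 in the Hdac3 deleted ones, a difference of 6.29 or 78.1-fold. The wild type samples lay at the edge of background and every Hdac3 deleted sample was far above it. Its other probe set, at 3.70, 3.75 and 3.86 in wild type, was within background there and reached 10.91, 10.98 and 10.94, at least 55.3-fold higher. Both Spic probe sets are of types that can match more than 1 transcript.

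Cd5l and Vcam1 encode proteins that mark these macrophages. Cd5l, a secreted scavenger receptor family protein that keeps macrophages alive, had the largest difference of the 9 genes. It stood at 5.61, 5.41 and 5.93 in the wild type samples and at 13.57, 13.61 and 13.57 in the Hdac3 deleted ones. The difference was 7.94, or 245-fold, ranking 13 of 12393 genes from the highest. The wild type samples were spread more widely (SD 0.266) than the Hdac3 deleted samples (SD 0.023), and the gap between the nearest samples of the groups was 7.64.

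Vcam1, an adhesion molecule bound by α4 integrins on leukocytes, had 3 probe sets that all moved in the same direction. The brightest stood at 6.40, 6.42 and 6.65 in the wild type samples and at 13.81, 13.92 and 14.04 in the Hdac3 deleted ones, 173-fold higher. The others were 77.2-fold and 28.5-fold higher, from 5.62 to 5.95 up to 11.97 to 12.10, and from 5.73 to 6.18 up to 10.67 to 10.86. The size of the Vcam1 difference thus ran from 4.83 to 7.43 on the log2 scale across its probe sets, a wider range than the spread within either group, while its direction was shared.

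Hmox1 and Blvrb encode enzymes of heme breakdown. Hmox1, heme oxygenase 1, opens the heme ring and frees its iron. It stood at 5.99, 5.98 and 6.46 in the wild type samples and at 11.79, 11.75 and 11.85 in the Hdac3 deleted ones, 50.3-fold higher. Wild type replicate 3 was the highest of its group, and without it the difference was 5.81 in place of 5.65. Blvrb, biliverdin reductase B, stood at 7.34, 7.18 and 7.31 in the wild type samples and at 10.72, 10.70 and 10.70 in the Hdac3 deleted ones. Its wild type samples were clearly above background, and the difference of 3.43 was 10.8-fold.

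Iron leaves the macrophage through ferroportin, the product of Slc40a1 and the known cellular exporter of iron. Its brighter probe set stood at 6.72, 6.79 and 7.05 in the wild type samples and at 13.25, 13.29 and 13.29 in the Hdac3 deleted ones, 86.0-fold higher. The other probe set had 4.78, 4.12 and 5.27 in wild type, with a mean inside background, and 11.50, 11.50 and 11.48 in the Hdac3 deleted ones, at least 80.9-fold higher. The wild type SD of that dimmer probe set, 0.573, was the widest of any probe set of these genes, and the groups still lay 6.21 apart at their nearest samples.

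Slc11a1, or NRAMP1, pumps iron and manganese out of the phagosome. It stood at 5.49, 5.49 and 5.41 in the wild type samples and at 11.47, 11.58 and 11.51 in the Hdac3 deleted ones. That is a difference of 6.06, or 66.6-fold, and the samples within each group were close, with SDs of 0.047 and 0.057.

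Fth1 and Tfrc, which most cells use, were bright in wild type and differed least. Fth1 encodes the ferritin heavy chain, the subunit that oxidises iron for storage. Its brighter probe set stood at 12.21, 12.30 and 12.30 in the wild type samples and at 13.31, 13.32 and 13.40 in the Hdac3 deleted ones, 2.11-fold higher, and the other was 2.46-fold higher. With each array centred on its median the Fth1 difference was 0.92, below 2-fold. The direction was the same in both probe sets, which are of types that can match more than 1 transcript, and the groups did not overlap.

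Tfrc encodes transferrin receptor 1, through which cells take up transferrin iron, and it also serves as a marker of dividing cells. Its brightest probe set stood at 8.55, 8.66 and 8.76 in the wild type samples and at 10.69, 10.74 and 10.70 in the Hdac3 deleted ones, 4.16-fold higher. The second measured 5.18, 5.19 and 5.15 against 5.75, 5.73 and 5.85, 1.52-fold higher, and the dimmest of those in the fit was at least 1.11-fold higher. The 3 control probe sets of the receptor, designed to its 3′ end, middle and 5′ end, lay within background by their means in both groups. The wild type mean of the second lay at the upper end of background and those of the 4 dimmer ones inside it, so the size of the Tfrc difference was read from the brightest alone. The mean of the 3 probe sets in the fit gave 1.16.

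Other genes of these pathways were taken from 11 lists, the 9 genes left out. Of 108 measured genes 29 rose, 4 fell and 75 did not pass, where over all genes 9.04% were past the threshold on the higher and 4.46% on the lower side. Their median difference was 0.09, against -0.17 over all genes. With the 15 genes within background in both groups left out and bounds used where 1 group lay there, it was 0.20, against -0.14 over all genes. The lists were drawn up with earlier results of these data known, so their counts are a description. The brightest probe set stands for a gene, and adjusted p-values for the genes below are from limma with Benjamini-Hochberg adjustment.

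Of 11 genes of heme uptake and breakdown 4 rose and 7 did not pass. Cd163, the receptor for haptoglobin bound to hemoglobin, rose at least 4.89-fold (adjusted p = 4.79e-06), and Hp, haptoglobin itself, at least 27.0-fold. Lrp1, a receptor for hemopexin bound to heme, rose at least 48.7-fold, and Slc48a1, which carries heme out of the phagolysosome, rose by 2.34 (SE 0.055, adjusted p = 7.85e-08). The genes of similarly named enzymes had smaller differences. Hmox2, the constitutive heme oxygenase, differed by 0.10 (adjusted p = 0.207) where Hmox1 differed by 5.65. Blvra, biliverdin reductase A, differed by 0.86 (adjusted p = 1.45e-05) where Blvrb differed by 3.43. Blvra was short of 2-fold except with cyclic loess (1.07). Whether the genes of each pair differ from each other was not tested, since Hmox1 and Blvrb were chosen on this contrast.

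Of 12 iron uptake genes 3 rose and 9 did not pass. Hfe, a partner of transferrin receptor 1, rose at least 35.2-fold (adjusted p = 1.01e-08), or at least 3.66-fold by its other probe set, as did the iron and siderophore binders Ltf and Lcn2, both abundant in neutrophils, at least 23.2-fold and 23.5-fold. Tfr2, the second transferrin receptor, differed by 0.09 (adjusted p = 0.480). Slc11a2, the endosomal relative of Slc11a1, differed by 0.22 (adjusted p = 0.0317), and by -3.0e-05 and 0.52 in its other probe sets. Slc11a1 differed by 6.06, but it was chosen on this contrast, so whether it differs from Slc11a2 was not tested. Of 4 measured storage and chaperone genes 1 rose and 3 did not pass. Ncoa4, the adaptor that sends ferritin for breakdown, rose by 1.49 (SE 0.066, adjusted p = 1.80e-06). The iron chaperones Pcbp1 and Pcbp2 differed by -0.22 and -0.21, and the sign of Pcbp2 turned with cyclic loess (0.02) and with other choices of probe set.

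In export and sensing, Cp and Aco1 passed. Of 5 measured genes of export and systemic control Cp, ceruloplasmin, which oxidises exported iron, rose at least 20.6-fold (adjusted p = 1.74e-05), and Hamp2 of the hepcidin family differed by -0.10. Of 6 sensing genes Aco1, iron regulatory protein 1, was at 1.03 (SE 0.12, adjusted p = 0.00023), barely past 2-fold. Without wild type replicate 1 it was at 0.95 and without Hdac3 deleted replicate 2 at 0.93, both short of it, as it was with median centring (0.87), the mean of its probe sets (0.98) and its other probe set alone (0.93). Ireb2, iron regulatory protein 2, differed by -0.01 (adjusted p = 0.910).

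Among 15 regulators of heme and stress responses 6 rose and 1 fell. Spi1, which encodes PU.1, the relative of Spi-C, rose at least 28.5-fold (adjusted p = 4.26e-08), and its partner Irf8 rose by 3.09 (SE 0.057, adjusted p = 2.61e-08). Pparg, a lipid-sensing receptor of macrophages, rose at least 12.2-fold, and Irf4 fell by 1.31 (adjusted p = 1.59e-06), or -0.96 with the mean of its probe sets. Bach1, Mafg and Nr1h3, named after their values were seen, rose by 1.13, 1.46 and 2.83, but Bach1 was at 0.97, short of 2-fold, both with median centring and with the mean of its probe sets. Nfe2l2, which encodes NRF2, was at 0.85, or 1.04 and past the threshold with cyclic loess, and its inhibitor Keap1 at 0.09. Of 11 NRF2 target genes outside the set only Gsr, glutathione reductase, passed, rising by 2.58 (adjusted p = 2.34e-07), and 3 were within background in both groups. On the adjusted p alone 4 were higher and 0 lower, where over all 12393 genes 2728 were higher and 4709 lower. Nothing is read from the NRF2 target counts against those of all genes. The glutathione synthesis genes Gclc and Gclm were at 0.03 and 0.41, and Gpx1 and Txnrd1 at 0.81 and 0.56. The other Gclc probe set went the other way, at -0.27 (adjusted p = 0.021). Hmox1 is itself an NRF2 target, and the part of NRF2 in its difference was not tested.

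Of 13 heme synthesis genes 2 rose, 1 fell and 10 did not pass, and on the adjusted p alone 7 were higher and 4 lower. Alas1, the first enzyme in most cells, rose by 2.33 (SE 0.067, adjusted p = 1.97e-07), and Abcb10 rose by 1.21, or 0.62 and short of 2-fold with the mean of its probe sets. Uros fell by 1.25, and the erythroid enzyme Alas2 was near background at 4.68 and 5.35. Of 7 iron-sulfur cluster assembly genes 0 passed with limma and 0 with Student's test, although all 7 had an unadjusted p under 0.05. On the adjusted p alone 2 of them were higher and 5 lower. Over all 12393 genes 8066 had an unadjusted p under 0.05, and on the adjusted p alone 2728 were higher and 4709 lower. Nothing is read from the counts of these 2 lists against those of all genes. The scaffold gene Iscu differed by 0.20 and the sulfur donor enzyme gene Nfs1 by 0.17.

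**Figure D2:**
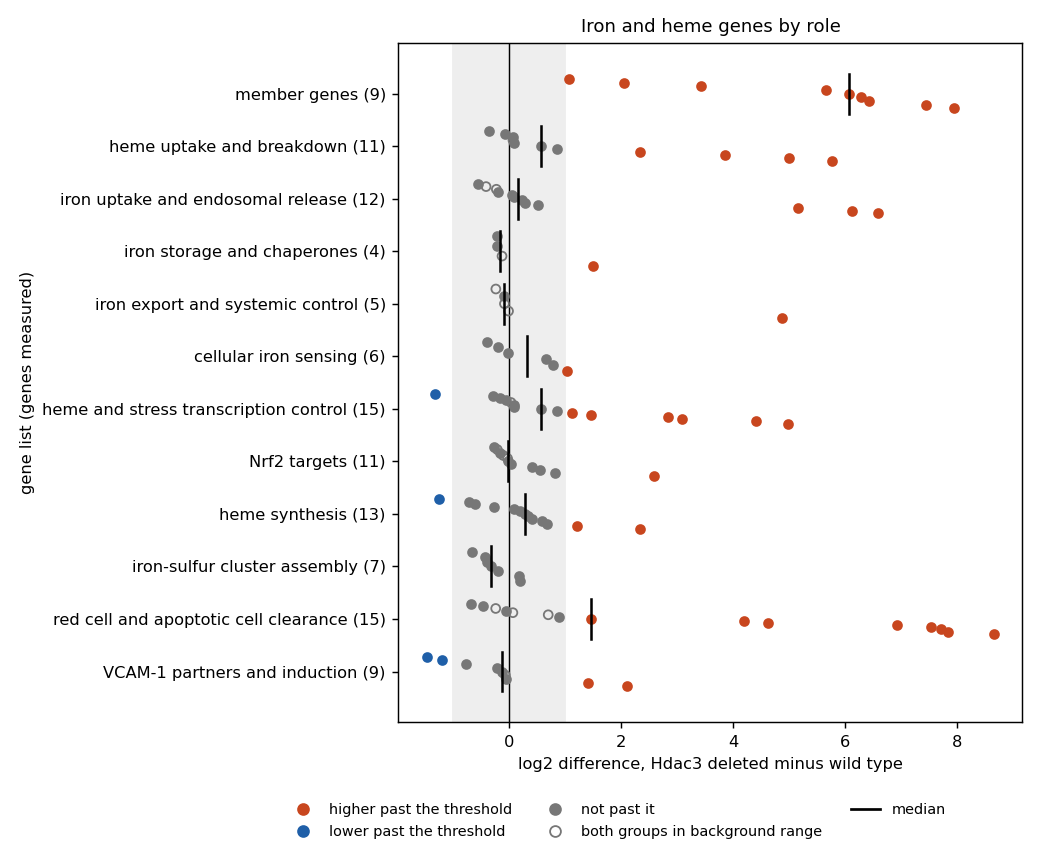
Log2 difference, Hdac3 deleted minus wild type (horizontal axis), of each of the 9 genes (top row) and of each measured gene in the pathway lists (other rows, number of genes in brackets), coloured by whether it passed the threshold, with a line at each list's median. Most points of the iron-sulfur, NRF2 target and heme synthesis lists lie close to 0, and the clearance list reaches 8.65 with C1qb.

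Of 15 measured genes for the clearance of red cells and dying cells 8 rose and 7 did not pass. The complement genes C1qa, C1qb and C1qc, whose product coats cells for uptake, were higher by 7.53, at least 398-fold and by 7.84 (adjusted p at most 7.14e-09). Sirpa, the macrophage receptor that restrains uptake of cells, rose by 6.92 (SE 0.10), whereas its ligand Cd47 on the cell to be eaten differed by -0.05 (adjusted p = 0.491), with 0.31 and 0.25 in its dimmer probe sets. The bridging protein gene Mfge8 was at -0.69, short of the threshold. Among the 9 partners and inducers of VCAM-1 Icam1 and Lta rose by 2.11 and 1.41, and Itga4, the integrin chain that binds VCAM-1, fell by 1.20 (SE 0.074, adjusted p = 9.84e-06), as did Icam2 by 1.47. With the mean of its probe sets Itga4 was at -0.45, short of 2-fold. The integrin chains that pair with it, Itgb1 and Itgb7, were at -0.05 and -0.77.

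Of cell types that a CD4+CD25+ sample could hold, macrophage and neutrophil markers moved with these genes and T cell markers fell. All 9 measured pan-macrophage markers rose, and their summed level was 8.18 to 8.31 on the log2 scale in the wild type group and 15.40 to 15.45 in the Hdac3 deleted group. Csf1r, the macrophage growth factor receptor, rose by 7.54, Adgre1, a marker of mature macrophages, at least 99.6-fold, and Cd68 by 6.05. Of 6 red pulp markers outside the set, Treml4 and Itgad had no value, and the 4 measured, Adgre1, Mrc1, Cd163 and Axl, rose. Adgre1, Mrc1 and Cd163 were already counted among the pan-macrophage markers. Axl, the only one of the 4 above background in wild type, rose by 4.19. All 7 neutrophil markers rose too, with summed levels of 7.54 to 8.0 and 14.94 to 14.96, and all 5 T cell markers fell, Cd3e by 1.51 and Cd3d by 1.21, though Cd3d was at -0.98 with cyclic loess. The part of such markers in the differences of the iron genes was not tested.

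Several of the iron genes are shared between macrophages of different organs, so the markers of those were read beside them. In the marginal zone list 3 of 4 measured genes rose, with Marco at least 145-fold and Siglec1 at least 3.60-fold higher, while Cd209b was within background in both groups. The probe sets of Siglec1 disagreed: another gave at least 1.55-fold higher, and the third, above background in both groups, was at -0.29 (adjusted p = 0.144). In the alveolar list 5 of 6 passed on the higher side, among them Chil3 at least 139-fold higher. Siglecf counts among those 5 but lay within background in both groups, as did Car4, so neither defining gene has a readable level. Marco also counts in the marginal zone list, Chil3 in the monocyte list and Pparg among the regulators. Fabp4 passed too, but its other probe sets lay within background in both groups, at 0.05, -0.35 and 0.51. Of the 4 Kupffer cell markers other than Cd5l, Nr1h3 rose and Id3 fell. Vsig4 was within background in both groups and Clec4f was close to it, at 5.21 and 4.89. Of 5 peritoneal macrophage genes Selp and Alox15 rose and Icam2 fell, Selp by 1.49, and Gata6 was within background in both groups. Of 5 monocyte genes 4 rose, Ccr2 by 1.39 and Cx3cr1 at least 2.68-fold, and both were short of 2-fold with the mean of their probe sets (0.75 and 0.69).

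Red cell precursors also carry heme genes and transferrin receptor. Of 10 measured erythroid genes 1 rose and 1 fell, Hba-a1 was within background in both groups, and their summed level ran from 9.09 to 9.12 in the wild type group and from 9.10 to 9.20 in the Hdac3 deleted group. Epor and Gata1, named after their values were seen, were the genes that passed, with differences of 1.76 and -1.42. Of 7 stromal and endothelial markers 0 passed with limma or Student's test, and differences ran from -0.26 to 0.53. On the adjusted p alone 1 was higher, the only one with an unadjusted p under 0.05, where 8066 of all 12393 genes had such a p. Cdh5 and Col1a1 were within background in both groups. Endothelium can express Vcam1, and the part of such cells in its difference was not tested. Their summed level was 8.74 to 8.88 in the wild type group and 9.10 to 9.13 in the Hdac3 deleted group. Of 4 hepatocyte markers 0 passed with limma or Student's test, 1 had an unadjusted p under 0.05, and Alb differed by -0.25 (adjusted p = 0.0920). Of 5 B cell markers Cd79b rose by 1.01, barely past 2-fold and below it with median centring (0.85) or without wild type replicate 2 or 3 or Hdac3 deleted replicate 1 or 3 (0.966 to 0.999), and Cd79a was at -0.26.

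**Figure D3:**
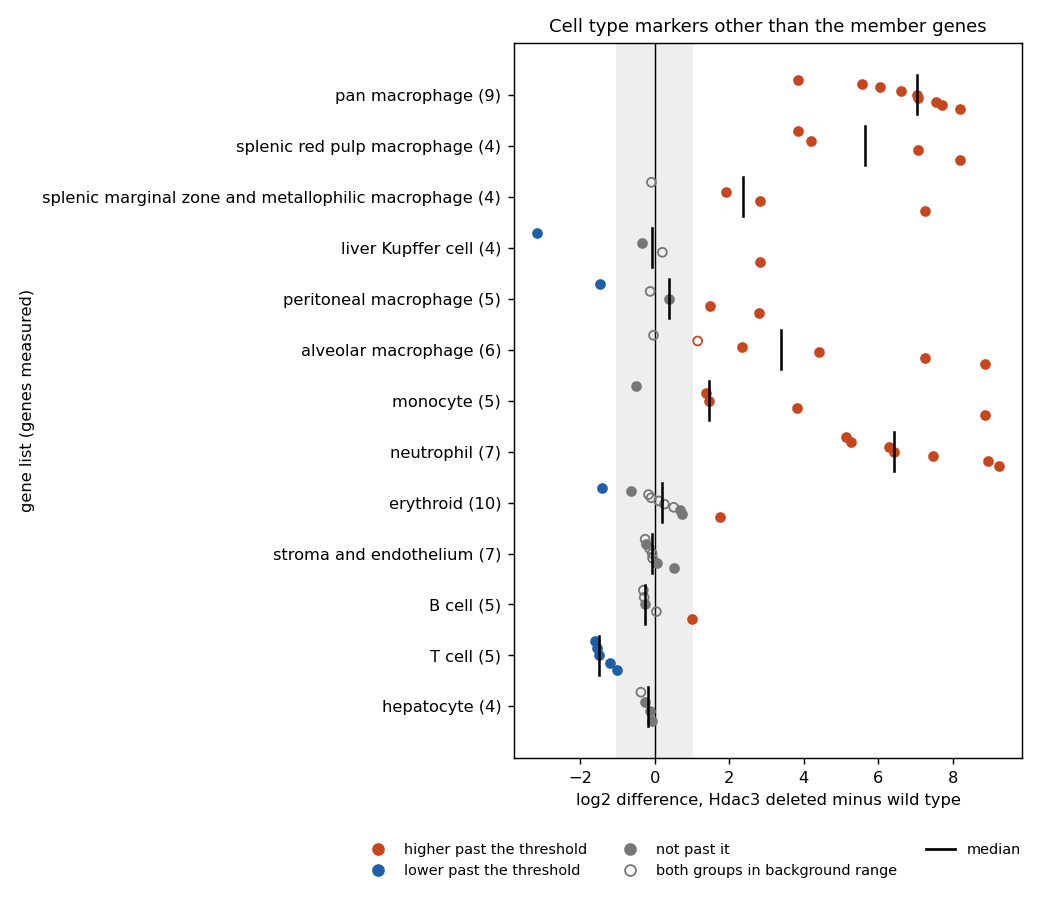
Log2 difference, Hdac3 deleted minus wild type (horizontal axis), of each measured marker in the cell type lists (rows, number of genes in brackets), coloured by whether it passed the threshold, open where both groups lay in the background range, with a line at each list's median. Pan-macrophage and neutrophil markers lie far above 0 and T cell markers below it, while erythroid, stromal and hepatocyte markers cluster around 0.

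The wild type samples of these genes were also set against each other. By the brightest probe set of each gene, the third wild type sample was the highest of its group in 7 of 9 genes. It was nearly level with the second in Fth1. Its largest excess over the mean of the other samples was 0.47 on the log2 scale, in Hmox1, far below the difference between groups for Cd5l or Hmox1. Over the 16 probe sets in the fit it was the highest in 11, and its largest excess was 0.81, in the dimmer Slc40a1 probe set. The dimmer Vcam1 probe sets were highest in replicates 1 and 2.

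**Figure D4:**
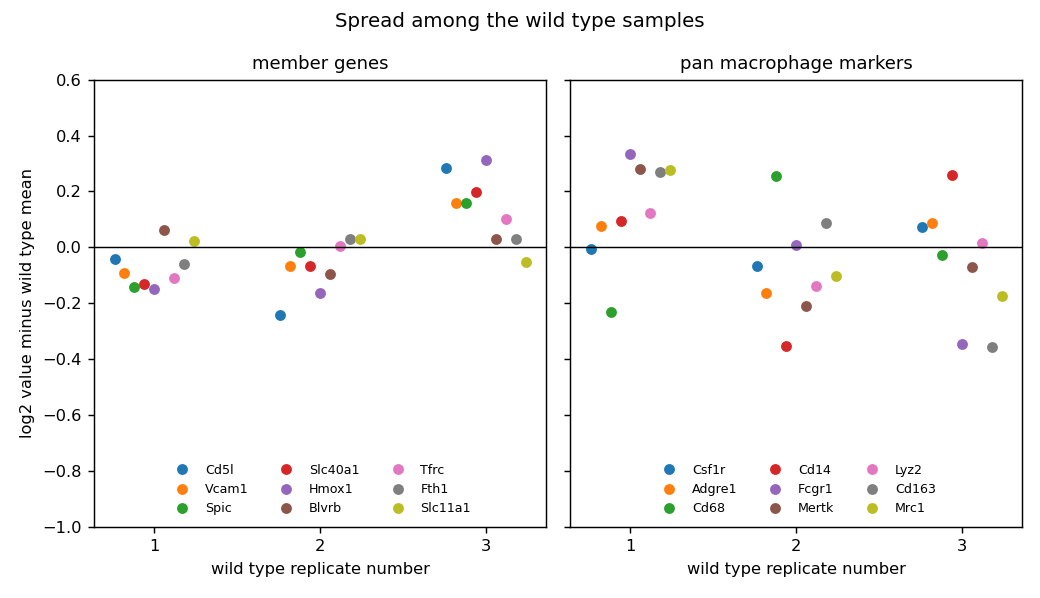
Log2 value minus the wild type mean (vertical axis) in each wild type sample (horizontal axis, replicate number), with 1 colour per gene, for the 9 genes and for pan-macrophage markers. Replicate 3 is the highest for 7 of the 9 genes and for 3 of 9 pan-macrophage markers.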

How the data were processed

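Per the series' design text, the authors used MAYDAY 2.12 for robust multiarray average (RMA) normalization and compared groups by Student's test. The deposited table holds log2 values, 1 per probe set and sample. RMA gives arrays a common distribution, so a change in total RNA per cell cannot be seen and a large change one way shifts other genes. Control probe sets (64) were left out of the fit, leaving 22626. The platform annotation gave 1 symbol to 20380 probe sets, several to 691 and none to 1555, and 20351 of the first matched RefSeq genes (GRCm38.p6) by Entrez identifier. The brightest probe set over all 6 samples represented a gene.

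Groups came from titles and genotypes. The source label of the Hdac3 deleted samples names Hdac11, another deacetylase, while their title and genotype name Hdac3. Differences were fitted with limma 3.58.1 in R 4.3.3, two-sided, over all tested probe sets for the model and adjusted by Benjamini-Hochberg, and the fit was tested on simulated data. The threshold, adjusted p under 0.05 with at least 2-fold, is the authors'. Tables and plots used Python 3.11.15, pandas 2.3.3 and matplotlib 3.10.9. P-values rest only on the spread between arrays, 3 per group. For each probe set, limma draws that spread toward a value estimated over all tested probe sets. The number of arrays limits the precision of the p-values.

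The 10 genes and all lists were chosen with earlier results of these data known. Named genes were every probe set of the 10 genes, up to 4 genes per pathway list past the threshold by smallest p with the first 2 above background that did not pass, and up to 3 markers per cell type list in written order. A summed level is the log2 of the summed linear values of a list's genes. Alternatives were the methods' t-test, the replicate number as a block, cyclic loess, median centring, dropping the 33.3% dimmest probe sets, averaging the probe sets of a gene, dropping those that can match several transcripts, a trended robust prior, a 1.5-fold threshold and leaving out each sample.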

Additional observations from a re-analysis of the deposited data

Results flagged for a closer look

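A probe set that names both Trf, transferrin, and Srprb, a signal recognition particle receptor subunit, belongs to no comparison above, and its signal was far above the wild type level. It measured 5.12, 5.0 and 5.02 in wild type, a mean within background, and 11.45, 11.48 and 11.44 in Hdac3 deleted samples. From the upper end of background the difference was 6.3 on the log2 scale, at least 78.8-fold. Trf and Srprb lie on chromosome 9 with 0 genes between them in RefSeq, and the signal cannot be assigned to either. Groups of 3 were too small for a check of single samples that lie apart.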

How the results depend on the processing

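All 9 iron genes kept their direction under every alternative run, within 7.78 to 8.14 for Cd5l, 5.49 to 5.84 for Hmox1, 6.18 to 7.64 for Vcam1, 1.16 to 2.26 for Tfrc and 0.92 to 1.30 for Fth1. Fth1 missed 2-fold with median centring, and Spic and Fth1 had no probe set left without those that can match several transcripts. Genes past the threshold numbered 1673 in the comparison as reported, 3389 at 1.5-fold, and 1656 to 1709 with each sample left out. The share of genes past the threshold that were higher was 66.9% of those 1673, 53.2% of those called with median centring and 79.1% of those called with cyclic loess, which moved the median over genes from -0.17 to -0.33 and 0.00. The count of other pathway genes was 33, 32 to 33 with each sample left out and 28 to 47 over all alternatives. Pcbp2 changed sign with cyclic loess (0.017), the mean of its probe sets (0.23) and without probe sets that can match several transcripts (0.67). Slc11a2 did so in the last case, at -3.0e-05. Abcb10 (0.62), Irf4 (-0.96), Itga4 (-0.45), Aco1 (0.98), Bach1 (0.97), Ccr2 (0.75) and Cx3cr1 (0.69) missed 2-fold with the mean of their probe sets. With median centring Aco1 (0.87), Bach1 (0.97), Cd79b (0.85) and Siglecf (0.99) did so, as did Aco1 without probe sets that can match several transcripts (0.93) and Cd3d with cyclic loess (-0.98). Blvra (1.07) and Nfe2l2 (1.04) passed with cyclic loess. The cause was not tested. With the replicate number as a block 1673 genes, 9 of the iron genes and 33 pathway genes passed, and it changed no count. Deviations of same-numbered samples from their group means correlated at 0.09, 0.08 and -0.19, and those of differently numbered samples at -0.25 to 0.21. With 3 samples per group these values cannot decide whether the numbers pair samples.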

Other observations

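The wild type samples differed slightly among themselves in these genes, a pattern seen only after the values were examined. Wild type replicate 3 was the highest of its group in 77.8% of the 9 genes against 35.4% of all genes, each read from its brightest probe set. The exceptions were Blvrb, highest in replicate 1, and Slc11a1, highest in replicate 2. In Fth1 replicate 3 was nearly level with replicate 2, at 12.301 and 12.299. All genes here include 3553 within background in both groups. The excess of replicate 3 over the mean of the other samples had a median of 0.24 (log2) over the 9 genes and 0.01 over all genes. Replicate 3 was the highest in 3 of 9 pan-macrophage markers, 1 of 7 neutrophil markers and 1 of 4 CD3 genes. These genes were chosen for their difference between the groups, and no test was made of the pattern.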
